A study of Mus musculus with 3 samples.

Results

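The 9 genes that encode the pore-forming subunits of the AMPA and kainate classes of ionotropic glutamate receptor were followed through single-nucleus RNA of differentiated mouse neurospheres. They were chosen by symbol, Gria1 to Gria4 for the 4 AMPA subunits and Grik1 to Grik5 for the 5 kainate subunits. Each symbol occurred once among the 30559 genes of the count tables, and all 9 genes had UMIs (unique molecular identifiers, each counted as 1 RNA molecule) in every library.

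In the mouse genome (GRCm38) the AMPA genes lie apart from each other. Gria1 (ENSMUSG00000020524) spans chr11:57011387-57330244 on the plus strand, Gria2 (ENSMUSG00000033981) chr3:80681450-80802835 on the minus strand, Gria3 (ENSMUSG00000001986) chrX:41400854-41678601 on the plus strand and Gria4 (ENSMUSG00000025892) chr9:4417896-4796234 on the minus strand. Of the kainate genes, Grik1 (ENSMUSG00000022935) spans chr16:87895900-88290265, Grik2 (ENSMUSG00000056073) chr10:49094833-49788766, Grik4 (ENSMUSG00000032017) chr9:42518135-42944493 and Grik5 (ENSMUSG00000003378) chr7:25009849-25072346, all on the minus strand, and Grik3 (ENSMUSG00000001985) chr4:125490700-125714173 on the plus strand. Their spans run from 62.5 kb for Grik5 to 694 kb for Grik2, and none overlaps another counted gene on its own strand.

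AMPA and kainate receptors are tetramers that open a cation channel when glutamate binds, and they carry most of the fast excitatory current in the brain. Within the kainate class Grik1, Grik2 and Grik3 can form channels by themselves, whereas Grik4 and Grik5 need one of those partners. AMPA receptors that contain the edited Gria2 subunit let little calcium through, and receptors without it are calcium permeable. Neurons, oligodendrocyte precursors and astroglia all make such receptors, and oligodendrocyte precursors receive glutamate synapses from neurons.

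Neural stem cells were taken from the subventricular zone of newborn pups on a C57BL/6 background, grown as neurospheres, differentiated, and collected at 15 days in vitro. One library was made of each condition, namely control, CBPf/f+Cre (CBP-ablated) and p300f/f+Cre (p300-ablated), and each library came from a pool of about 15 cultures. CBP and p300, encoded by Crebbp and Ep300, are paralogous lysine acetyltransferases that act as transcriptional coactivators, and the study asked what each contributes to the differentiation of neural lineages. Per the study's methods the Cre recombinase came from a lentivirus with an mCherry reporter and the control cultures carried a lentivirus with RFP, red nuclei were sorted, and the mouse line of the control cultures is not given in the sources used here, while the labels name tamoxifen as the treatment of all 3 groups. With exonic and intronic UMIs counted together, the floxed genes did not check the labels: Crebbp had 335, 370 and 365 UMIs per 1000000 UMIs (CPM) in the control, CBP-ablated and p300-ablated libraries, and Ep300 had 114, 136 and 115 CPM.

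The control library held 4884 nuclei, the CBP-ablated one 3017 and the p300-ablated one 4648, with totals of 16312170, 12748336 and 18876682 UMIs and a median of 3219, 4016 and 3902.5 UMIs per nucleus. Only 11 of the 12538 barcodes occurred in 2 libraries and none in 3. With 1 library per condition no test was possible. Every interval below is a 95% interval for counting error only, exact Poisson for a level, Clopper-Pearson for a share and conditional binomial for a ratio, and none includes the variation between cultures. Both ablated libraries were set against the same control library.

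The editing that closes Gria2-containing channels to calcium acts on 1 codon in the pore loop, the Q/R site, where deamination of an adenosine turns a glutamine codon into one read as arginine. Gria2, Grik1 and Grik2 transcripts are edited there by ADAR2, the product of Adarb1. The 27 bases of coding sequence around this codon are shown for all 9 genes because the site is the feature by which Gria2 differs in function from the other AMPA subunits. They were read 5′ to 3′ from GENCODE M21 transcripts (GRCm38), with the Q/R codon in capitals.
Gria1: ggggccttcatgCAGcaaggatgtgac
Gria2: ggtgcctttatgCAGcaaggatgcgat
Gria3: ggtgcttttatgCAGcaaggatgtgat
Gria4: ggtgcctttatgCAAcaaggatgtgac
Grik1: ggagctctcatgCAGcaaggatcggag
Grik2: ggagctctcatgCAGcaaggttctgag
Grik3: ggctccctgatgCAGcaaggatctgaa
Grik4: ggaggcttcatgCAGcaaggctccact
Grik5: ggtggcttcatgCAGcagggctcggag

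The genome encoded glutamine at this codon in all 9 genes, by CAG in 8 of them and by CAA in Gria4. The Gria2 codon is number 607 of 883 and lies on the minus strand at chr3:80706911-80706913, in exon 11 of 16 of the transcript used. Against the Gria2 window, 2 bases differed in Gria3, 3 in Gria4 and 4 in Gria1, and 7 or 8 differed in the kainate subunits. The windows of Grik1, Grik2 and Grik3 cross an exon junction, and the others lie within 1 exon. Counts of UMIs per gene do not show whether a transcript was edited.

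All 9 genes were detected at depth. The 4 AMPA genes together had 3078, 2345 and 3317 CPM in the control, CBP-ablated and p300-ablated libraries, and the 5 kainate genes together had 1757, 2080 and 1907 CPM. In the CBP-ablated library the AMPA sum was therefore lower than in control, with a log2 ratio of −0.39 (−0.41 to −0.37), and the kainate sum was higher, at 0.24 (0.22 to 0.27). Without the astrocyte-like nuclei, a class found in the control library alone, the AMPA ratio was −0.37 and the kainate ratio was 0.00 (−0.03 to 0.03). When the remaining classes were weighted as in control, the AMPA ratio was −0.13 and the kainate ratio −0.11. Within classes the AMPA interval was below 0 in 5 and above 0 in 1 of 9. The kainate interval was below 0 in 3 and above 0 in 1 of 9, and that 1 was microglia-like nuclei, at 1.36. The highest AMPA ratio, 0.37, was in microglia-like nuclei too. That class is used below to gauge background. In the p300-ablated library both sums were slightly higher, at 0.11 (0.09 to 0.12) and 0.12 (0.10 to 0.14), but without the astrocyte-like nuclei the kainate ratio turned to −0.13 (−0.15 to −0.10).

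Gria2, which sets calcium permeability, had 832 CPM (817 to 848) in the CBP-ablated library, against 1467 (1448 to 1485) in control and 1489 (1472 to 1506) in the p300-ablated library. The CBP-ablated library alone was low. Grik3, a homomer-forming kainate subunit, had 308 CPM (298 to 317) in the CBP-ablated library, against 175 (169 to 182) in control and 211 (204 to 218) in the p300-ablated library, so that the CBP-ablated library was the highest. Without the astrocyte-like nuclei the Grik3 ratio of CBP-ablated over control was 0.43 and that of p300-ablated over control turned to −0.12. Grik1, of the same kind, had 118, 109 and 191 CPM, and Grik4, an obligate partner subunit, had 278, 247 and 420 CPM. The p300-ablated library stood highest for both. Their ratios of CBP-ablated over control without the astrocyte-like nuclei were −0.48 (−0.58 to −0.38) for Grik1 and −0.50 (−0.57 to −0.44) for Grik4. Within classes the interval was below 0 in 4 and above 0 in 1 of 7 for Grik1. For Grik4 it was below 0 in 4 and above 0 in 1 of 8. Grik2, the most widely used homomer-forming kainate subunit in the brain, had 1061, 1287 and 946 CPM, with the CBP-ablated library above and the p300-ablated library below control. The CBP-ablated Grik2 ratio of 0.28 was 0.08 without the astrocyte-like nuclei and −0.25 at the class mix of control, and within classes its interval was below 0 in 4 and above 0 in 2 of 9. Those above 0 include microglia-like nuclei, at 1.66, a class used below to gauge background. Gria1, Gria4 and Grik5 spanned 336 to 358, 799 to 931 and 124 to 139 CPM, and Gria3, which is X-linked, spanned 377 to 538 CPM. Without the astrocyte-like nuclei the ratios of CBP-ablated over control were −0.08 (−0.14 to −0.02) for Gria1, −0.17 for Gria4, 0.02 for Grik5 and −0.37 for Gria3. Within classes the Gria3 interval was below 0 in 2 and above 0 in 1 of 9. The Gria4 interval was below 0 in 1 and above 0 in 3 of 9, and those above 0 include microglia-like nuclei, at 1.54. Under the alternative settings described below, the whole-library ratio ran from −0.37 to −0.008 for Gria3 and from −0.17 to 0.12 for Gria4.

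**Figure D1:**
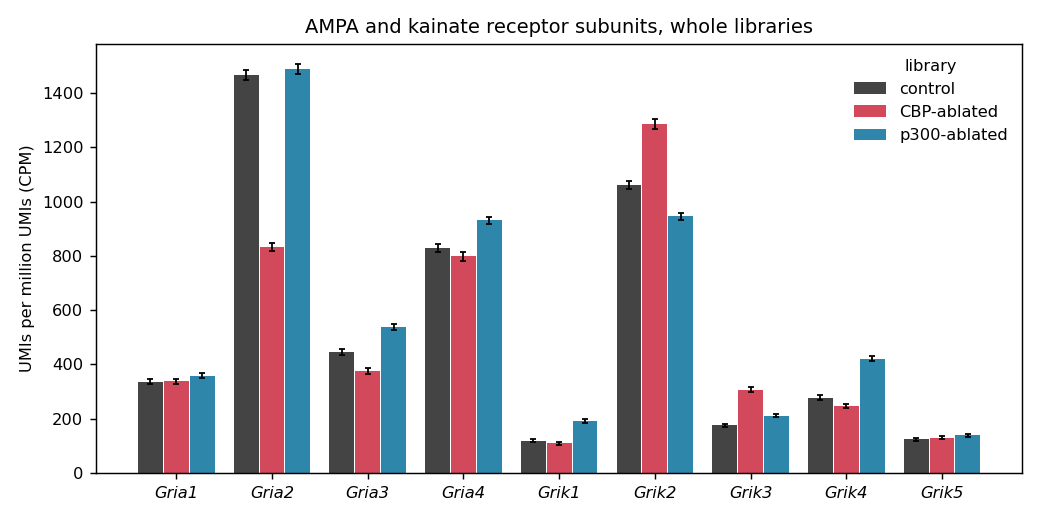
UMIs per 1000000 UMIs (CPM) of each subunit gene in the whole control (grey), CBP-ablated (red) and p300-ablated (blue) library, 1 library each, with the 95% Poisson interval for counting error as the error bar. Gria2 is lowest in the CBP-ablated library (832 against 1467 and 1489 CPM), Grik3 is highest there (308 CPM), and Grik1 and Grik4 are highest in the p300-ablated library (191 and 420 CPM).

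Because nuclear RNA includes unspliced transcripts, longer genes may give more UMIs, and genes were ranked per length of gene. Whether UMIs rose with gene length was not tested. Per 100 kb of gene span, Gria2 had 1208 CPM in the control library, Gria4 219, Grik5 199, Gria3 160, Grik2 153 and Gria1 105. Grik3, Grik4 and Grik1 had 78.5, 65.1 and 29.96 CPM per 100 kb. On this scale Gria2 was the highest of the 9 genes in each of the 12 clusters with libraries pooled, from 308 CPM per 100 kb in microglia-like to 1706 in astrocyte-like nuclei. The ranking depends on the scale. In CPM without it, pooled neuron-like nuclei had 2810 for Gria1 and 1138 for Gria2. Pooled oligodendrocyte-like nuclei had 1912 CPM for Grik2 and 486 for Gria2.

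Nuclei were grouped without the help of these genes, which were left out of the clustering together with 33 genes for receptor partners. Of the 12 clusters, 9 carried the markers of a class and are called by its name with the ending "-like", 1 is called the Kcnj6/Nell2 cluster by its leading genes, and 2 are unnamed. The astrocyte-like class had 1276 nuclei, 26.1% of the control library, and none in either ablated library, so that for this class the library and the cell type cannot be told apart. In whole libraries fewer nuclei of a class and less RNA per nucleus cannot be told apart either. One unnamed cluster of 184 nuclei had 69, 29 and 72 called doublets among its 69, 37 and 78 nuclei and is not described further.

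Free RNA in the droplets was gauged in microglia-like nuclei, which should lack most of these transcripts. They had a median of 1134, 1010 and 1664 UMIs in the control, CBP-ablated and p300-ablated libraries, against 3240, 3431 and 3833 in nuclei like neural progenitors and oligodendrocyte precursors (NPC/OPC-like). After thinning of each nucleus to 1500 UMIs, Gria2 had a UMI in 29.7% of 64 control microglia-like nuclei and Gria1 in 4.7%. In control NPC/OPC-like nuclei the shares were 87.2% for Gria2 and 8.0% for Gria1, and before thinning they were 98.0% and 14.0%. Over the 3 libraries the levels in microglia-like nuclei ran from 35 to 58 CPM for Gria1, 357 to 412 for Gria2, 96 to 147 for Gria3 and 123 to 357 for Gria4. They ran from 19 to 92 CPM for Grik1, 168 to 530 for Grik2, 28 to 96 for Grik3, 10 to 92 for Grik4 and 7 to 39 for Grik5, and rest on 1 to 103 UMIs each. Values of other classes within or below these ranges are read as not told apart from background. The rule is coarse, because the ranges span 3 libraries and rest on shallow nuclei, and it can take in genes that are expressed.

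Among the AMPA subunits, Gria1, a main subunit of hippocampal and cortical receptors, separated the classes most clearly. In the control library it had 2744 CPM (2562 to 2935) in neuron-like, 1303 (1243 to 1365) in glial progenitor-like and 740 (699 to 784) in radial glia-like or precursor-like (RGC/PSC-like) nuclei. It was at 266 CPM (250 to 283) in astrocyte-like nuclei and at 14 to 75 CPM in NPC/OPC-like, proliferating-like, committed oligodendrocyte precursor-like, oligodendrocyte-like and Kcnj6/Nell2 nuclei, against 42 CPM (22 to 74) in microglia-like nuclei. Of 3 ependymal markers, glial progenitor-like nuclei held Cfap44 in 36.3%, Foxj1 in 5.24% and Dnah12 in 4.33% of nuclei, and RGC/PSC-like nuclei held them in 23.0%, 3.89% and 1.63%. The part of such cells in the Gria1 levels was not tested.

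Gria2 was highest in control astrocyte-like nuclei, at 2071 CPM (2026 to 2116). NPC/OPC-like nuclei (1623, 1581 to 1665), committed oligodendrocyte precursor-like nuclei (1609, 1549 to 1671), the Kcnj6/Nell2 cluster (1591, 1524 to 1660) and proliferating-like nuclei (1515, 1406 to 1630) followed with intervals that overlapped. It was lower in neuron-like (1216), RGC/PSC-like (877) and glial progenitor-like (760) nuclei and lowest of the neural classes in oligodendrocyte-like nuclei, at 521 CPM (474 to 572). Gria4, common in glial precursors and interneurons, was highest in proliferating-like nuclei (1850 CPM, 1729 to 1976), followed by NPC/OPC-like (1445), neuron-like (1262), Kcnj6/Nell2 (1175) and committed precursor-like nuclei (811), and the intervals of neuron-like and Kcnj6/Nell2 nuclei overlapped. In oligodendrocyte-like nuclei it had 259 CPM, within the range of microglia-like nuclei. With libraries pooled, however, Gria4 had 279 CPM (265 to 295) in oligodendrocyte-like and 215 CPM (178 to 259) in microglia-like nuclei. Gria3 was lowest in neuron-like nuclei, at 133 CPM (95.4 to 180), which overlapped the 147 CPM (106 to 199) of microglia-like nuclei, and it was highest, with overlapping intervals, in RGC/PSC-like and NPC/OPC-like nuclei, at 650 CPM in both, and in proliferating-like nuclei, at 640 CPM.

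Among the kainate subunits, Grik1 was high in neuron-like (954 CPM, 848 to 1069) and proliferating-like nuclei (612, 544 to 687) of the control library. It had 256 CPM in NPC/OPC-like and 167 in Kcnj6/Nell2 nuclei. Grik1 and Grik3 were at background in RGC/PSC-like, glial progenitor-like and astrocyte-like nuclei, with 3 to 10 CPM in control, so that neither was detectable above background there. Grik3 peaked in committed oligodendrocyte precursor-like nuclei, at 542 CPM (508 to 579), against 309 in NPC/OPC-like and 212 in oligodendrocyte-like nuclei.

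Grik2 alone of the 9 was higher in oligodendrocyte-like nuclei of the control library, at 1962 CPM (1869 to 2058), than in NPC/OPC-like nuclei, at 1284 CPM (1247 to 1322), and the other 8 were lower. The level of Grik2 was not separable by counting error between oligodendrocyte-like nuclei, the Kcnj6/Nell2 cluster (2053, 1977 to 2132) and neuron-like nuclei (1917, 1765 to 2078), and the 311 CPM of RGC/PSC-like nuclei was within the range of microglia-like nuclei. After thinning, with libraries pooled, Grik2 had a UMI in 31.1% (28.9 to 33.5) of RGC/PSC-like and 19.8% (13.0 to 28.3) of microglia-like nuclei. Of the obligate partner subunits, Grik4 was highest in NPC/OPC-like, Kcnj6/Nell2 and proliferating-like nuclei (577, 547 and 518 CPM, with overlapping intervals) and was within the range of microglia-like nuclei in RGC/PSC-like, astrocyte-like and oligodendrocyte-like nuclei (68, 48 and 84 CPM). Grik5 had 113 to 172 CPM in control classes and clusters other than oligodendrocyte-like nuclei (31 CPM) and microglia-like nuclei (14 CPM).

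**Figure D2:**
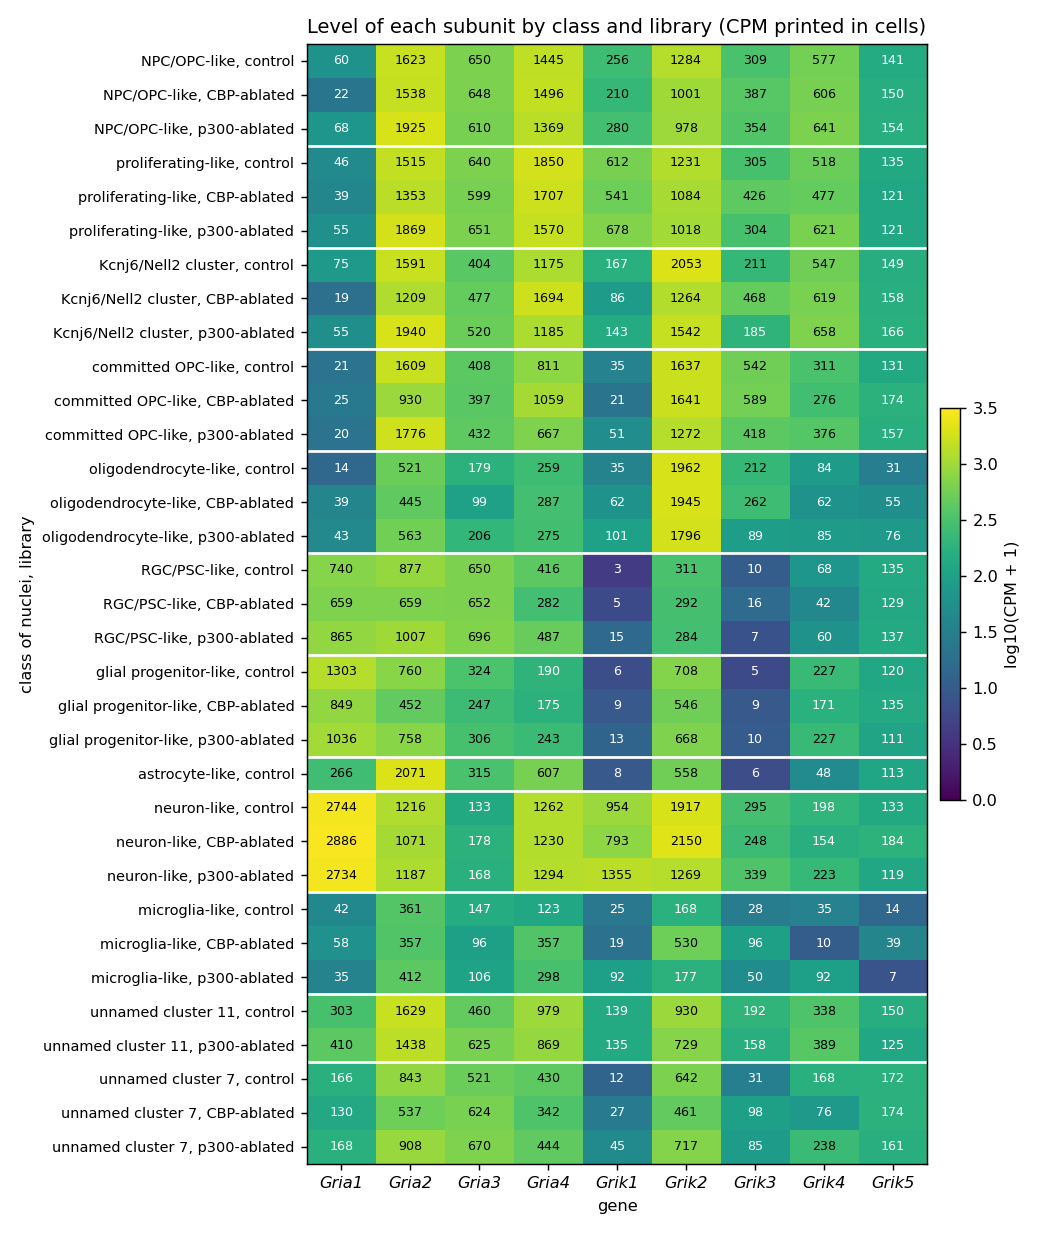
Level of each subunit gene (columns) in each class or cluster of nuclei and library (rows) with at least 50 nuclei, coloured by log10(CPM + 1), with the CPM printed in each cell. Gria1 is high in neuron-like, glial progenitor-like and RGC/PSC-like rows (659 to 2886 CPM), Grik1 and Grik3 are at 16 CPM or less in RGC/PSC-like, glial progenitor-like and astrocyte-like rows, and Gria2 of committed oligodendrocyte precursor-like (committed OPC-like) nuclei is lowest in the CBP-ablated library (930 CPM).

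The Gria2 ratio of CBP-ablated over control was below 0 in the 8 named classes found in both libraries and in the Kcnj6/Nell2 cluster, and the interval excluded 0 in 7 of these 9. The NPC/OPC-like value, one of the 7, was 0.0150 after thinning to 1500 UMIs. In committed oligodendrocyte precursor-like nuclei it had 1609 CPM in control, 930 in CBP-ablated and 1776 in p300-ablated nuclei, a log2 ratio of −0.79 (−0.87 to −0.71, 2640 against 2700 UMIs), and 3.05% of the genes tested in that class had a lower ratio. In glial progenitor-like nuclei it had 760, 452 and 758 CPM, with a ratio of −0.75 (−0.89 to −0.61), and in RGC/PSC-like nuclei 877, 659 and 1007 CPM, with a ratio of −0.41 (−0.53 to −0.29). The CBP-ablated library was the low one in each of these 3 classes.

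The Gria2 ratio was −0.40 (−0.50 to −0.29) in the Kcnj6/Nell2 cluster, −0.23 (−0.38 to −0.07) in oligodendrocyte-like nuclei and −0.08 (−0.15 to −0.005) in NPC/OPC-like nuclei. It was −0.18 (−0.37 to 0.004) in neuron-like nuclei and −0.02 in microglia-like nuclei, where Gria2 is read as background. The intervals of NPC/OPC-like and committed precursor-like nuclei did not overlap. Over the whole library the log2 ratio was −0.82 (−0.85 to −0.78). It was −0.62 (−0.65 to −0.58) without the astrocyte-like nuclei, in which Gria2 was highest, and −0.34 when the other classes were weighted as in the control library.

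Whole-library counts of members were close to the background. In the CBP-ablated library 2 of 9 members were past 1.5-fold, Gria2 lower and Grik3 higher, beside 17.9% of the 11883 genes with at least 100 UMIs in both libraries together. Without the astrocyte-like nuclei Gria2 alone was past it, beside 13.2% of genes. The median log2 ratio of the members was −0.06, and that of all genes was 0.06.

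Within classes, 1 of 9 members was past 1.5-fold in NPC/OPC-like nuclei (7.35% of genes), 4 of 9 in the Kcnj6/Nell2 cluster (22.8% of genes), 2 of 9 in committed precursor-like nuclei (12.5%), 4 of 9 in oligodendrocyte-like nuclei (12.7%), 1 of 7 in RGC/PSC-like nuclei (8.97%) and 2 of 7 in glial progenitor-like nuclei (10.9%). It was 0 of 8 in proliferating-like (13% of genes) and 0 of 9 in neuron-like nuclei (11.7%). Microglia-like nuclei had 1 of 2 (16.4%) and the second unnamed cluster 1 of 6 (21.1%). In oligodendrocyte-like nuclei the 4 were Gria1 (14 and 39 CPM in control and CBP-ablated), Grik1 (35 and 62), Grik5 (31 and 55) and Gria3 (179 and 99), and microglia-like nuclei had 42 and 58, 25 and 19, 14 and 39, and 147 and 96 CPM of the same genes. The single member in NPC/OPC-like nuclei was Gria1, at 60 CPM in control and 22 in CBP-ablated nuclei (30 UMIs), at or near background, and the one in RGC/PSC-like nuclei was Grik4, at 68 and 42 CPM, within the background range. In committed precursor-like nuclei Grik1, at 35 and 21 CPM, joined Gria2, and it too was at background.

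Above background, Gria1 was lower in CBP-ablated glial progenitor-like nuclei, where it had 1303 CPM in control, 849 in CBP-ablated and 1036 in p300-ablated nuclei. The log2 ratios over control were −0.62 (−0.73 to −0.51) and −0.33 (−0.42 to −0.24), so that both ablated libraries were lower. In neuron-like nuclei Gria1 differed little, with 2744, 2886 and 2734 CPM and a ratio of CBP-ablated over control of 0.07 (−0.05 to 0.19). Gria4 differed in the opposite direction to Gria2 in committed precursor-like nuclei, with 1059 CPM in CBP-ablated, 811 in control and 667 in p300-ablated nuclei. Its ratio of CBP-ablated over control was 0.39 (0.29 to 0.48) there and 0.53 (0.43 to 0.63) in the Kcnj6/Nell2 cluster, and −0.56 (−0.74 to −0.39) in RGC/PSC-like nuclei, where the CBP-ablated value of 282 CPM was within the range of microglia-like nuclei.

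In the Kcnj6/Nell2 cluster of the CBP-ablated library 3 of the 4 members past 1.5-fold were kainate subunits, and the other was Gria1, at 75 CPM in control and 19 in CBP-ablated nuclei. Grik3 had 211 CPM in control, 468 in CBP-ablated and 185 in p300-ablated nuclei of this cluster, a log2 ratio over control of 1.15 (0.93 to 1.37). Grik2 had 2053, 1264 and 1542 CPM, with a ratio of −0.70 (−0.80 to −0.60), and Grik1 had 167, 86 and 143 CPM, with a ratio of −0.95 (−1.33 to −0.59) and a CBP-ablated value within the background range. At a clustering resolution of 0.3 these nuclei joined the NPC/OPC-like class. In NPC/OPC-like nuclei Grik3 differed in the same direction by less, with 309, 387 and 354 CPM and ratios over control of 0.33 (0.17 to 0.48) and 0.20 (0.09 to 0.30).

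**Figure D3:**
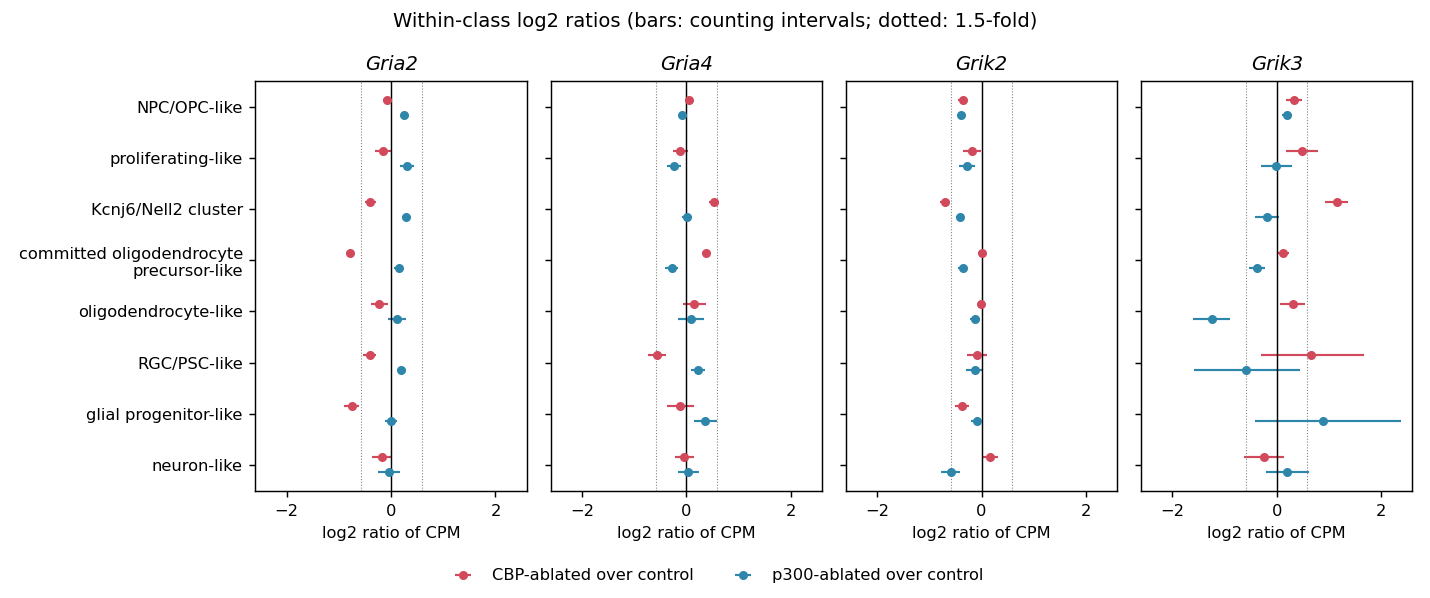
Log2 ratio of CPM, CBP-ablated over control (red) and p300-ablated over control (blue), for Gria2, Gria4, Grik2 and Grik3 within 8 classes or clusters, with 95% counting intervals as bars and dotted lines at 1.5-fold. The CBP-ablated Gria2 points lie left of 0 in every row, down to −0.79 in committed oligodendrocyte precursor-like nuclei, while the p300-ablated Grik2 points lie left of 0 in every row shown, down to −0.59 in neuron-like nuclei.

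In the p300-ablated library the Grik2 ratio over control was below 0 in 8 of 9 classes and clusters, all but microglia-like nuclei, and the interval excluded 0 in 6. In NPC/OPC-like nuclei it had 1284 CPM in control and 978 in p300-ablated nuclei, a log2 ratio of −0.39 (−0.45 to −0.34), and CBP-ablated nuclei of this class had 1001 CPM. The ratio of p300-ablated over control was −0.41 (−0.49 to −0.34) in the Kcnj6/Nell2 cluster, −0.36 (−0.46 to −0.27) in committed precursor-like and −0.13 in oligodendrocyte-like nuclei. In neuron-like nuclei Grik2 had 1917 CPM in control, 2150 in CBP-ablated and 1269 in p300-ablated nuclei, a ratio of p300-ablated over control of −0.59 (−0.78 to −0.41) from 101 control and 87 p300-ablated nuclei.

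Grik1 went the other way in the same neuron-like nuclei, with 954, 793 and 1355 CPM. Its log2 ratio over control was 0.51 (0.29 to 0.72) in p300-ablated and −0.27 (−0.48 to −0.05) in CBP-ablated nuclei. The share of Grik1 in kainate UMIs of neuron-like nuclei was 27.3% in control, 22.5% in CBP-ablated and 41.0% in p300-ablated nuclei, and that of Grik2 was 54.8%, 60.9% and 38.4%. Grik3 was lower in p300-ablated oligodendrocyte-like nuclei, at 89 CPM against 212 in control and 262 in CBP-ablated nuclei, with a ratio over control of −1.25 (−1.61 to −0.89), and the p300-ablated value lay within the range of microglia-like nuclei.

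Gria2 was higher in p300-ablated than in control nuclei in several classes, with a log2 ratio of 0.25 (0.20 to 0.29) in NPC/OPC-like nuclei, 0.29 (0.21 to 0.36) in the Kcnj6/Nell2 cluster, 0.30 (0.17 to 0.43) in proliferating-like and 0.20 (0.11 to 0.29) in RGC/PSC-like nuclei. The whole-library ratio was 0.02 (−0.003 to 0.05), and 0.22 (0.20 to 0.25) without the astrocyte-like nuclei. In whole libraries Grik1 and Grik4 were past 1.5-fold, 2 of 9 members beside 12.1% of genes, with ratios of 0.69 (0.61 to 0.77) and 0.60 (0.54 to 0.65). Without the astrocyte-like nuclei, which had 8 and 48 CPM of these genes, the ratios were 0.32 (0.24 to 0.40) and 0.26 (0.21 to 0.32), and no member was past 1.5-fold beside 6.41% of genes.

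Within classes of the p300-ablated library no member was past 1.5-fold in NPC/OPC-like nuclei (4.69% of genes), the Kcnj6/Nell2 cluster (6.91%), committed precursor-like (6.38%), RGC/PSC-like (4.6%) or glial progenitor-like nuclei (7.5%). In oligodendrocyte-like nuclei 3 of 8 were, Grik3 lower and Grik1 and Grik5 higher, beside 10.1% of genes, with 35 and 101 CPM of Grik1 and 31 and 76 CPM of Grik5 in control and p300-ablated nuclei. In neuron-like nuclei 1 of 7 was, Grik2 lower, beside 12.7% of genes. The median log2 ratio over the members in the whole library was 0.17, and that of all genes was −0.03.

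The direct comparison of the ablated libraries does not rest on the control library or on its astrocyte-like nuclei. In CBP-ablated against p300-ablated nuclei 3 of 9 members were past 1.5-fold, beside 16.3% of genes, and all 3 were lower in the CBP-ablated library. The log2 ratio was −0.84 (−0.87 to −0.81) for Gria2, −0.81 (−0.90 to −0.72) for Grik1 and −0.77 (−0.83 to −0.71) for Grik4. Grik3 and Grik2 were higher in the CBP-ablated library, at 0.54 (0.48 to 0.61) and 0.44 (0.41 to 0.47). The mix of classes differed between these libraries too, with oligodendrocyte-like nuclei at 16.1% and 4.2% of the CBP-ablated and p300-ablated libraries and NPC/OPC-like nuclei at 12.8% and 38.4%. Within classes the Gria2 ratio was below 0 in all 9 compared and its interval excluded 0 in 7. It was −0.93 (−1.02 to −0.85) in committed precursor-like, −0.75 (−0.88 to −0.61) in glial progenitor-like, −0.61 (−0.71 to −0.51) in RGC/PSC-like and −0.32 (−0.39 to −0.26) in NPC/OPC-like nuclei.

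The share of Gria2 among the AMPA UMIs was lowest in the CBP-ablated library. Over all nuclei it was 47.7% (47.2 to 48.1) in control, 35.5% in CBP-ablated and 44.9% in p300-ablated nuclei. In committed precursor-like nuclei the share was 56.5%, 38.6% and 61.4%, and that of Gria4 was 28.5%, 43.9% and 23.0%. In NPC/OPC-like nuclei the share of Gria2 was 42.9%, 41.5% and 48.5%, so that control and CBP-ablated nuclei differed little there. In each library neuron-like nuclei had the lowest share of Gria2, 22.7% in control, and control astrocyte-like nuclei had 63.5%.

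**Figure D4:**
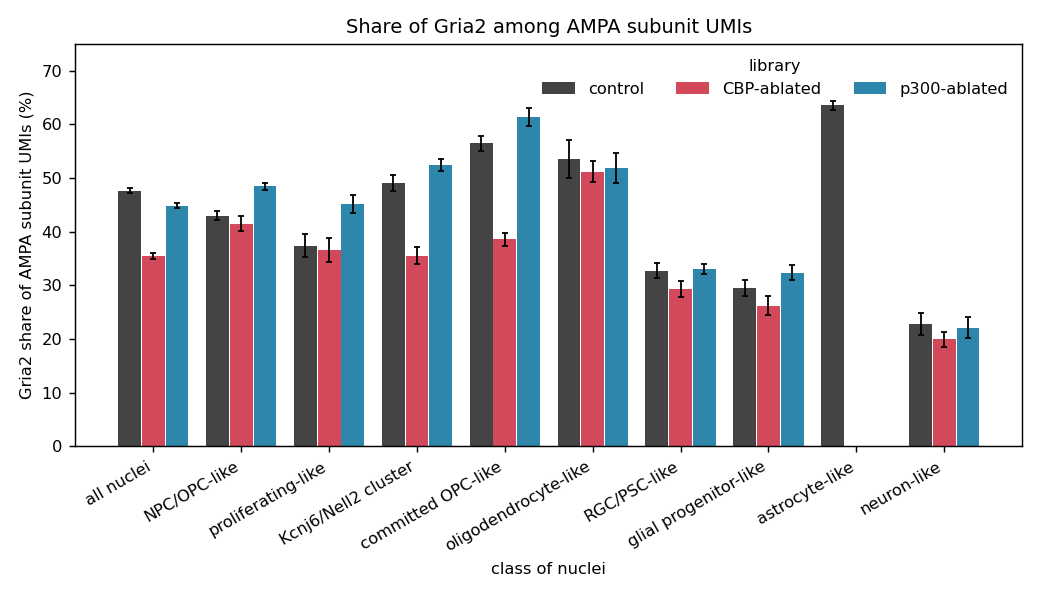
Share of Gria2 among the UMIs of the 4 AMPA genes (%) in all nuclei and by class or cluster of the control (grey), CBP-ablated (red) and p300-ablated (blue) library, with 95% Clopper-Pearson intervals as error bars. Microglia-like nuclei and the unnamed clusters are not shown. The red bar is far below the others in committed oligodendrocyte precursor-like (committed OPC-like) nuclei (38.6% against 56.5% and 61.4%), and the astrocyte-like class exists in control only.

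At 1500 UMIs per nucleus, a nucleus of the control library had UMIs of 1.98 AMPA and 1.36 kainate genes on average, against 1.73 and 1.56 in the CBP-ablated and 2.12 and 1.61 in the p300-ablated library. Nuclei with an AMPA UMI and none of Gria2 made up 14.9% (13.9 to 15.9) of control, 25.1% (23.6 to 26.7) of CBP-ablated and 15.1% (14.1 to 16.2) of p300-ablated nuclei. In committed precursor-like nuclei they made up 8.14% (5.64 to 11.3), 25.1% (21.7 to 28.8) and 8.33% (5.16 to 12.6), and the CBP-ablated library stood apart. In the other classes and clusters compared, the control and CBP-ablated intervals overlapped. The CBP-ablated share was below control in NPC/OPC-like nuclei (10.5% against 12.1%) and in the second unnamed cluster (25.0% against 33.6%). It was above control in glial progenitor-like (37.7% against 29.9%), RGC/PSC-like (36.7% against 30.7%), proliferating-like (21.7% against 10.7%) and Kcnj6/Nell2 nuclei (19.1% against 12.9%). Oligodendrocyte-like (21.6% against 17.5%) and neuron-like nuclei (25.0% against 20.9%) were above control too. Control astrocyte-like nuclei, at 6.79%, enter the whole-library share of control alone. In the 64 control microglia-like nuclei the share was 20.3% (11.3 to 32.2). A nucleus without a UMI at this depth may still hold the transcript.

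The partner genes of these receptors were read from a list of 33. Of the 15 AMPA auxiliary genes, 12 had at least 100 UMIs in the control and CBP-ablated libraries together, of which 2 were past 1.5-fold higher and 3 lower in the CBP-ablated library, beside 7.9% and 9.97% of all genes. Without the astrocyte-like nuclei Shisa6 was lower past 1.5-fold as well (−0.70). Cacng8, whose product is a transmembrane AMPA receptor regulatory protein, had 83.9, 27.1 and 54.1 CPM in the control, CBP-ablated and p300-ablated libraries, and its ratio of CBP-ablated over control was −1.63 (−1.01 without the astrocyte-like nuclei). In NPC/OPC-like nuclei that ratio was −0.81 (−1.40 to −0.26). Cacng4, of the same family, had 286, 175 and 551 CPM, and its ratio of CBP-ablated over control was −0.71 in the whole library but −0.09 (−0.20 to 0.02) in NPC/OPC-like nuclei. Cacng5 had 6.19, 1.10 and 8.42 CPM. Cnih3, a cornichon auxiliary subunit, had 8.58, 26.1 and 11.8 CPM, and Cacng2 (stargazin) had 4.41, 8.39 and 4.56 CPM. With libraries pooled, Cnih3 was highest in oligodendrocyte-like nuclei (104 CPM) and Cacng2 in neuron-like nuclei (192 CPM). Oligodendrocyte-like nuclei made up 3.3% of the control and 16.1% of the CBP-ablated library, and neuron-like nuclei 2.1% and 5.6%. The part of this class mix in the 2 ratios was not tested. In the p300-ablated library Cacng4 and Shisa7 were past 1.5-fold higher and Cacng8 lower among 13 genes, beside 4.37% of all genes higher and 7.77% lower. Without the astrocyte-like nuclei the ratio of Cacng8 was −0.01, that of Shisa7 0.35 and that of Cacng4 0.58, under 1.5-fold. Cacng5, at 0.60 (0.18 to 1.03), was past it in that setting, beside 2.31% of all genes higher. Gsg1l, at 0.78 (0.11 to 1.49), had fewer than 100 UMIs there and is not counted.

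Neto1 and Neto2, the kainate receptor auxiliary subunits, were not past 1.5-fold in either whole-library comparison, although without the astrocyte-like nuclei the Neto1 ratio of CBP-ablated over control was −0.72. In NPC/OPC-like nuclei it was −0.08 (−0.22 to 0.06). Neto1 had 173, 135 and 240 CPM and Neto2 had 170, 138 and 227 CPM in the control, CBP-ablated and p300-ablated libraries, the CBP-ablated library being lowest for both. Of the 11 anchoring and trafficking genes 6 had enough UMIs in each comparison, and 1 in each was past 1.5-fold, Dlg1 in the CBP-ablated (0.72) and Dlg2 in the p300-ablated library (0.84), both genes of membrane scaffold proteins, beside 17.9% and 12.1% of all genes. Without the astrocyte-like nuclei the Dlg2 ratio was 0.54, under 1.5-fold. Neither of the delta receptors nor any of the 3 editing genes was past 1.5-fold in whole libraries. Without the astrocyte-like nuclei the CBP-ablated Grid1 ratio was past it, at −0.68 (−0.73 to −0.64), beside 13.2% of all genes. In NPC/OPC-like nuclei it was −0.09 (−0.17 to −0.005). With libraries pooled, Grid1 had 1361 CPM in NPC/OPC-like and 93 CPM in oligodendrocyte-like nuclei. The part of the class mix in the Grid1 ratio was not tested. Adarb1, which encodes the Q/R-site editing enzyme, had 44.0, 44.1 and 57.4 CPM in the control, CBP-ablated and p300-ablated libraries, and with libraries pooled it ranged from 11.4 CPM in oligodendrocyte-like to 81.9 CPM in neuron-like and 100.1 CPM (53 UMIs) in microglia-like nuclei. Adarb2, a homolog without known editing activity and a marker used to name neuron-like nuclei, had 7150 CPM there. In NPC/OPC-like nuclei the Adarb2 ratio of CBP-ablated over control was past 1.5-fold, at −0.77 (−0.88 to −0.67). That of Adarb1 was 0.01 (−0.37 to 0.38) in the same nuclei.

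The genes whose levels ran most like those of each subunit were sought over 34 sums, each of 1 class or cluster in 1 library, among 8521 genes. The sums share libraries, and those of 1 class share their cell type, so the Pearson r of log2(CPM + 1) is a description. Among the members themselves the highest r was 0.82, between Gria2 and Gria4, and the lowest was −0.49, between Gria1 and Grik3. Grik3 ran most like Dscaml1 (0.96), Sh3d19 (0.95) and Snap91 (0.95), Gria1 like Rapgef4 (0.94), Plekhh2 and Atp1b1, and Grik4 like Kcnq5 (0.94), Susd4 and Gpr45. Grik5 ran most like Lrrn2 (0.93), Emx2os and Enah, Gria4 like Sntg1 (0.93), Nav3 and Nmnat2, and Grik1 like Nrg3 (0.92), Ryr3 and Dpp6. The closest to Gria2 were Nmnat2 (0.88), Lsamp and the delta receptor gene Grid1, those to Gria3 were Gpc6 (0.88), Jam2 and Ano3, and those to Grik2 were Tmem178b (0.87), Scn8a and Tmtc2.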

How the data were processed

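Nuclear RNA of 3 pools of cultures was sequenced with the 10x 3′ kit v3. Per the submitters' processing notes the authors used FastQC 0.11.9, Cell Ranger 3.1 and Seurat 2.3.4 with GRCm38, and what the authors deposited are raw UMI counts per gene and nucleus, with exonic and intronic reads. All deposited nuclei were kept. Sums were scaled to CPM, and ratios were taken of CPM. Clustering took from the study's methods the 1000 most variable genes per library, 20 components and resolution 0.6, but was run anew in Seurat 5.3.0 with 30 neighbours and seed 1, on 1601 variable genes without the 9 genes and 33 partner genes, so clusters can differ from the study's. A class name needed a UMI in 10% of nuclei and 2 times the level elsewhere for 60% of its markers and at least 3 of them. The list of the Kcnj6/Nell2 cluster (Kcnj6, Nell2 and the partner gene Cacng4) needed only 2, and all 3 passed. Doublets were scored with Scrublet (scanpy 1.11.5), called at 0.8% per 1000 nuclei, and kept. Ratios within classes needed 50 nuclei per library and 20 UMIs. The text names all 9 members, listed partner genes (Cacng4, Neto1, Neto2, Adarb1, Adarb2 and those past 1.5-fold with 100 UMIs), the 3 most similar genes per member (500 UMIs or more), the floxed genes and cluster leaders. Cfap44, Foxj1, Dnah12, Shisa6 and Gsg1l were named after their values were seen. Members and lists were chosen with earlier results of these data known. The ratio and its interval were tested on simulated Poisson sums, which hold no variation between nuclei or cultures and so test the counting error only. Alternatives were doublets, depth, thinning, weighting, size factors, class mix, clustering settings and free RNA.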

Additional observations from a re-analysis of the deposited data

How the results depend on the processing

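Of 92 values of family sums and counts under alternatives, 62 stayed within their counting interval (counts within 1.5 times), 27 moved and 3 changed direction. For CBP-ablated over control, the whole-library AMPA log2 ratio was −0.32 after thinning to 1500 UMIs, −0.31 with nuclei weighted equally, −0.45 with median-of-ratios size factors, −0.37 without the astrocyte-like nuclei and −0.13 at the class mix of the control library (11 classes and clusters, without the astrocyte-like nuclei). The kainate ratio was 0.27, 0.27, 0.19, 5.29e-05 and −0.11 under the same settings, the last a change of direction. For p300-ablated over control the whole-library AMPA ratio was 0.14 with size factors, 0.13 without the astrocyte-like nuclei and 0.0736 at the control mix, and the kainate ratio was 0.19 with equal weights, 0.15 with size factors, and changed direction to −0.13 and −0.12 in the last 2 settings. Members past 1.5-fold in the CBP-ablated library numbered 1 without the astrocyte-like nuclei, 0 at the control mix and 0 at 2-fold, and in the p300-ablated library 0, 0 and 0. In NPC/OPC-like nuclei size factors, which lowered every CBP-ablated ratio of this class by 0.08, gave −0.11 for AMPA and −0.20 for kainate. Without size factors the AMPA sum of this class was 5005 of 1351284 UMIs in the CBP-ablated and 13492 of 3570951 in the control library. For the p300-ablated library AMPA gave 0.11 at resolution 0.3 and 0.10 with classes by marker score, and kainate gave −0.14, −0.14 and −0.16 at resolution 0.3, by marker score and at resolution 1.2.

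Only single members whose interval excluded 0 are listed as changing direction. In the CBP-ablated whole library they were Gria4 (0.0497 with equal weights, 0.12 at the control mix), Grik1 (0.10 thinned, 0.0453 with equal weights), Grik2 (−0.25 at the control mix) and Grik4 (0.00921 with equal weights). The Gria1 ratio there, 0.01 (−0.05 to 0.07), ran from −0.32 to 0.21. In the p300-ablated whole library the listed members were Gria1 (−0.0297) and Gria4 (−0.0541) at the control mix and Grik3 (−0.12 without the astrocyte-like nuclei, −0.0814 at the control mix). In NPC/OPC-like nuclei they were Gria2 in the CBP-ablated (0.0150 thinned) and Gria3 in the p300-ablated library (0.0211 at resolution 0.3). The cause of these changes was not tested. Alternatives chosen after seeing the data were run for Gria2 in 3 classes of the CBP-ablated and Grik2 in 2 classes of the p300-ablated library, and changed no direction there. The Gria2 ratio ran from −0.91 to −0.78 in committed precursor-like, −0.82 to −0.71 in glial progenitor-like and −0.48 to −0.38 in RGC/PSC-like nuclei, and the Grik2 ratio from −0.57 to −0.35 in committed precursor-like and −0.62 to −0.49 in neuron-like nuclei. Counts at or near those of microglia-like nuclei limit Gria1 in the oligodendrocyte lineage and Grik1 and Grik3 in astroglial classes. No paired analysis was possible because each condition had 1 library.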
